A study of Mus musculus with 6 samples.

Results

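The Rab, Arf, Vps, Stx and Vamp genes encode core parts of vesicle traffic, and their RNA was compared here between Tfh cell libraries labelled WT and Bach2-deficient. The genes were chosen by symbol, as Rab, Vps, Stx or Vamp followed by a digit or Arf followed by digits alone, which gave 122 of the 14744 genes in the table. Of these, 113 had a normalized count of at least 10 in at least 3 libraries, among 11296 genes that met the same rule. The 113 are 46 Rab GTPases, 9 genes of other proteins with a Rab in their name, 6 Arf, 29 Vps, 14 Stx and 6 Vamp genes, and 3 RNAs that carry a Rab name, which are a pseudogene and 2 antisense transcripts. Each had at least 1 library of each group at 10 or more, but 4, Rab7b among them, had all 3 libraries labelled Bach2-deficient and just 1 WT library there. The 9 below the rule were Rab3b, Rab27b, Rab33a, Rab36, Rab38, Rab42, Vps25, Rab11fip4os1 and Rab9b-ps1. Just inside it lay Rab13, with 6.06, 11.2 and 20.8 in WT replicates 1, 2 and 3 and 4.43, 17.4 and 9.21 in the other group, and just outside lay Rab38, with 0, 11.2 and 2.08 and 8.87, 4.69 and 4.09.

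Tfh cells, which give B cells the help they need in germinal centers, were sorted as CD4+B220-CD44+PD-1+CXCR5+ cells from the MLNs of mice on a C57BL/6J background aged 2 to 3 months, with 10000 to 30000 cells per sample. One group is labelled WT and the other Bach2 fl/fl with Cd4-cre, with 3 libraries each. In the study, mice designated WT are Cd4-Cre littermates, so that both groups would carry the transgene. Cd4-Cre is active in T cells from the thymus on, so the deletion is neither limited to Tfh cells nor begun in them. The sources used here speak of replicates but do not say of each library whether it comes from a separate animal, so the p-values measure the spread between these libraries, which may be technical.

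Rab and Arf proteins are small GTPases that switch between a GDP form kept in the cytosol and a GTP form on a membrane, where they recruit coats, motors and tethers. Vps proteins form the complexes that sort cargo at endosomes, and the syntaxins and VAMPs are SNAREs, which pair across membranes to drive fusion. In T cells these steps recycle the antigen receptor to the synapse, carry ligands and cytokines to the surface and return receptors from endosomes.

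The values are read counts per gene divided by a size factor of each library. They summed to 7809702, 7387316 and 8135325 in WT replicates 1, 2 and 3, and to 7456435, 7362290 and 7361229 in replicates 1, 2 and 3 labelled Bach2-deficient. WT replicate 1 had values above 0 for 11648 genes, against 13111 to 13567 in the other 5 libraries. Bach2, the deleted gene, was at 233, 222 and 105 normalized counts in WT replicates 1, 2 and 3 and at 399, 763 and 591 in replicates 1, 2 and 3 labelled Bach2-deficient. Its 3 values there exceed all 3 WT values, which goes against the label. Its log2 fold change, given as here with its standard error (SE), was 1.68 ± 0.37 (SE, limma adjusted p = 0.141). Adjusted p for Bach2 was 0.00123 by DESeq2 on 5 libraries and 0.000186 by limma with library weights, 2 fits described below. Such per-gene counts include reads on exons outside the deleted part. For this reason that group is named by its label, as libraries labelled Bach2-deficient, and each direction given here is a direction between labels.

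The sort was checked by marker genes. The 11 Tfh markers, with Cd3g the most abundant, summed to 46076, 50404 and 67245 normalized counts in WT replicates 1, 2 and 3 and to 39831, 36937 and 48954 in replicates 1, 2 and 3 labelled Bach2-deficient. Single markers went both ways. At an unadjusted limma p under 0.05, 3 of the 11 were higher and 2 lower in the libraries labelled Bach2-deficient, all 5 without overlap. These are 27.3% and 18.2%, against 10.1% and 10.2% of all genes tested, and 14.6% and 12.2% without overlap. Cd4, Bcl6 and Tox2 were higher, by 0.49, 0.74 and 1.10 in log2, and Cd3e and Icos lower, by -1.02 and -1.03. Cxcr5 and Pdcd1, which encode the sorted CXCR5 and PD-1, overlapped between groups at 0.087 and -0.26. Of the B cell list, 11 of 12 genes were in the table and summed to 242, 875 and 598 and to 466, 425 and 365 in the same order, with Cd79b the most abundant. RNA of other cells was present in unequal amounts. Jchain, the joining chain of secreted antibody, led the plasma cell list of 6 genes at 316, 28803 and 6972 in the WT libraries and 2075, 472 and 484 in the libraries labelled Bach2-deficient. Lyz2, the lysozyme of myeloid cells, led a list of 12 at 1848, 7212 and 3444 and 1445, 4396 and 1407. WT replicate 2 was the highest library for both. Fewer cells of a type and less RNA per cell cannot be told apart in these bulk libraries, and the part of such RNA in the results was not tested.

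The groups were compared with limma on log2(normalized count + 1) over all 11296 genes, and a call needed a Benjamini-Hochberg adjusted p under 0.01 and more than a 2-fold change. No member passed, and neither did any other gene, so the background is 0% in each direction. The smallest adjusted p was 0.141 over all genes and over the members. At an unadjusted p under 0.05, 9 members were higher and 10 lower in the libraries labelled Bach2-deficient, which is 7.96% and 8.85% of 113, against 10.1% and 10.2% of all genes tested. In 12 members every library labelled Bach2-deficient lay above every WT library, and in 13 below, which is 10.6% and 11.5%, against 14.6% and 12.2% of all genes. In this fit the shares of the members were thus near those of all genes, and no test of the difference was made. With 3 libraries in each group, the smallest p of an exact permutation test of 1 gene is 0.1 (2-sided).

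The counts depended on single libraries. Without replicate 1 labelled Bach2-deficient 2 members were higher and 9 lower at an unadjusted p under 0.05, or 1.77% and 7.96%, against 4.14% and 5.36% of all genes in that fit. Without replicate 2 of that label 4 were higher and 7 lower, or 3.54% and 6.19%, against 4.74% and 5.92%, so the shares of all genes were smaller too. Without replicate 3 of that label both were larger, with 13 members higher and 15 lower, or 11.5% and 13.3%, against 13.1% and 14.0%. WT replicate 1 and replicate 3 labelled Bach2-deficient stood apart from their groups. Over all genes tested, log2 values of WT replicate 1 correlated with those of WT replicates 2 and 3 at Pearson's r of 0.851 and 0.862, beside 0.949 between these 2. Those of replicate 3 labelled Bach2-deficient correlated with WT replicates 2 and 3 at 0.940 and 0.941, and with replicates 1 and 2 of its own label at 0.914 and 0.931. DESeq2 on reads recovered for 5 libraries, without WT replicate 1, called 0.292% of genes higher and 0.505% lower and no member. At an unadjusted p under 0.05 it had 6 members higher and 13 lower (5.31% and 11.5%, against 9.66% and 9.45% of all genes). Limma without the same library had 7 and 11 (6.19% and 9.73%, against 9.79% and 9.43% of all genes). The adjusted p of DESeq2 was nearest to the threshold among members for Arf6, at 0.0218, and Arf4, at 0.0292. The edgeR quasi-likelihood test on the same reads called no gene and had the same numbers of members at an unadjusted p under 0.05, against 9.55% and 8.77% of all genes. With library weights estimated by limma, 4.97% of genes were called higher and 5.02% lower, and of the members Rab35, Rab6a and Stx4a were higher and Arf4, Rab5a and Vps72 lower. Those weights ran from 0.206 for WT replicate 1 to 5.54 for replicate 2 labelled Bach2-deficient, so that fit rests mostly on a few libraries. Rab6a, named here because of its values, is outside the rule for named genes.

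By family, the median log2 fold change was 0.35 for Arf, 0.13 for the Rab GTPases, 0.61 for the Rab-named partners, 0.10 for Vps, 0.054 for Stx, -0.018 for Vamp and -0.059 for the Rab-named RNAs, beside 0.082 for all genes tested. The Rab-named partners had the highest median in this fit, with 7 of 9 above 0, but after correction for transcript length and GC content theirs was 0.25, below 0.27 for the Rab GTPases and 0.29 for Arf. Without WT replicate 1 their median was 0.33, that of Arf 0.14, and those of the Rab GTPases and Stx turned to -0.019 and -0.13. Leaving out each library in turn also took the medians of Vps (-0.11 to 0.14), Vamp (-0.14 to 0.16) and the Rab-named RNAs (-0.21 to 0.043) to both sides of 0, so the sign of these medians is not settled. The Stx median was also below 0 after quantile normalization (-0.13), and that of Vamp was above 0 after quantile normalization (0.016).

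**Figure D1:**
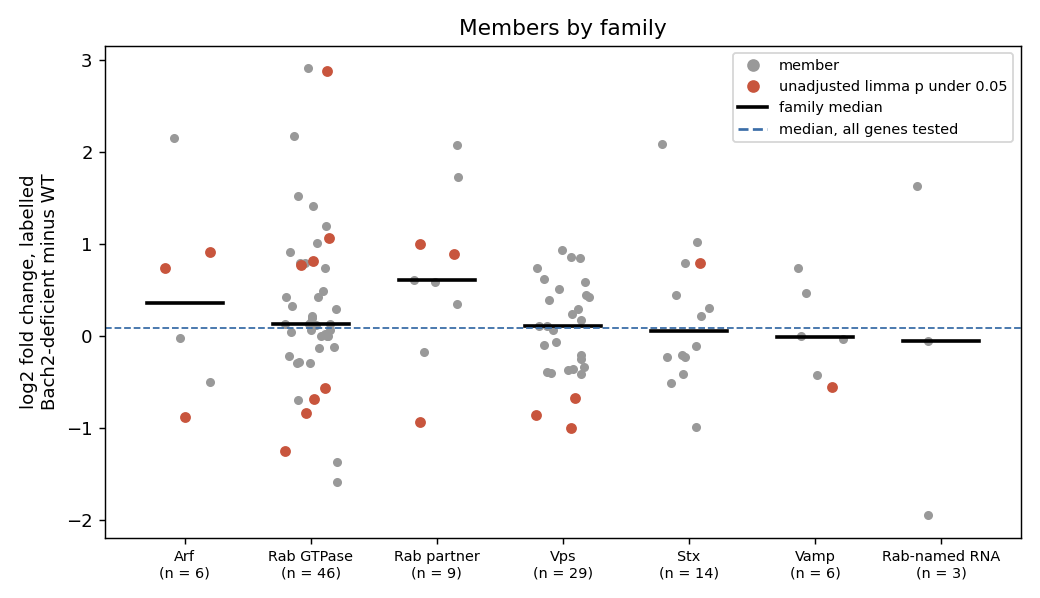
Each point is a member, placed by family (horizontal) and by its log2 fold change in libraries labelled Bach2-deficient minus WT (vertical). Black bars are family medians, from -0.059 for Rab-named RNAs to 0.61 for Rab partners, the dashed line is the median of all genes tested at 0.082, and red points had an unadjusted limma p under 0.05, with such points on both sides of 0 in Arf, the Rab GTPases and the Rab partners.

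Within Arf the members went opposite ways. Arf4, a class II Arf that acts at the Golgi, was at 3009, 2514 and 3222 normalized counts in WT replicates 1, 2 and 3 and at 1413, 1457 and 1884 in replicates 1, 2 and 3 labelled Bach2-deficient. All 3 libraries labelled Bach2-deficient were below all 3 WT libraries, with a gap between 1884 and 2514. Its mean was 2915 ± 364 (SD, n = 3) against 1585 ± 260.1 (SD, n = 3) and its log2 fold change -0.88 ± 0.20 (SE, limma adjusted p = 0.141), the smallest unadjusted p of the members. Arf3, a class I Arf of the trans-Golgi network, was at 495, 778 and 647 normalized counts in WT replicates 1, 2 and 3 and at 1605, 1247 and 824 in replicates 1, 2 and 3 labelled Bach2-deficient. Here the libraries labelled Bach2-deficient were the higher ones, without overlap, with replicate 3 only just above the WT libraries and a log2 fold change of 0.91 ± 0.28 (SE, limma adjusted p = 0.156). Arf6, the class III Arf that drives recycling and actin remodelling at the plasma membrane, was at 1299, 774 and 917 normalized counts in WT replicates 1, 2 and 3 and at 1941, 1463 and 1495 in replicates 1, 2 and 3 labelled Bach2-deficient. It too was higher without overlap, by 0.73 ± 0.24 (SE, limma adjusted p = 0.160). Arf1, the class I Arf that recruits COPI and clathrin adaptors, was at 4776, 2652 and 3405 and 2384, 2240.0 and 2832 in the same order of libraries, and the groups overlapped with a log2 fold change of -0.50 ± 0.24 (SE, limma adjusted p = 0.259), or -0.28 without WT replicate 1. Arf5, the other class II Arf, was at 2530.4, 1747 and 2131 and 1559, 1781 and 3214, with a 95% interval of the log2 difference from -0.65 to 0.60.

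**Figure D2:**
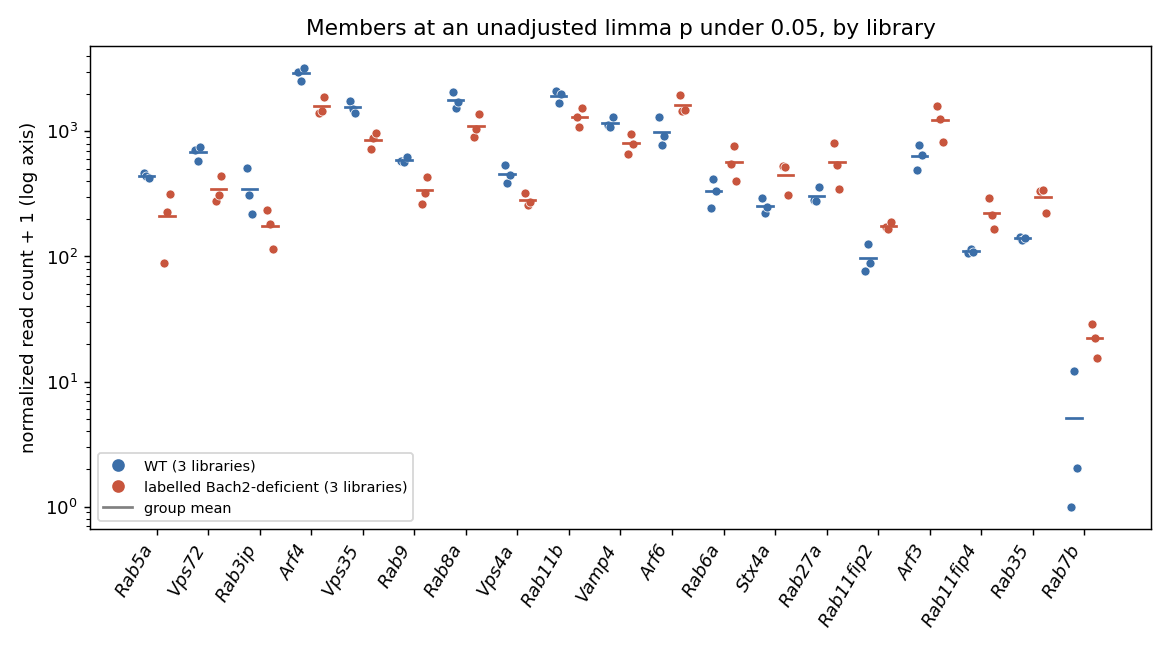
Normalized read count + 1 (vertical, log axis) of the 19 members with an unadjusted limma p under 0.05, ordered by log2 fold change, in 3 WT libraries (blue) and 3 libraries labelled Bach2-deficient (red), with bars at group means. Rab27a, Rab6a and Rab3ip overlap between groups, the other 16 do not, and Rab7b has values under 30 in each library.

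At the early endosome, Rab5 proteins direct fusion of incoming vesicles. Rab5a was at 466, 439.7 and 420.1 normalized counts in WT replicates 1, 2 and 3 and at 87.2, 227 and 315 in replicates 1, 2 and 3 labelled Bach2-deficient. The WT libraries lay within a narrow band and the others were spread below it, with replicate 1 labelled Bach2-deficient the lowest. Rab5a had a log2 fold change of -1.26 ± 0.42 (SE, limma adjusted p = 0.166), and without that replicate -0.72. Its paralog Rab5b was at 71.7, 101 and 95.7 normalized counts in WT replicates 1, 2 and 3 and at 197, 184 and 101 in replicates 1, 2 and 3 labelled Bach2-deficient. It was higher in replicates 1 and 2 labelled Bach2-deficient, and replicate 3 was level with WT replicates 2 and 3. Rab5c was at 529, 247 and 354 and 368, 299.5 and 479.7, with overlap. Rab5a made up 43.7, 55.8 and 48.3% of the summed normalized counts of the 3 paralogs in the WT libraries and 13.4, 32.0 and 35.2% in the libraries labelled Bach2-deficient. For Rab5b the shares were 6.72, 12.8 and 11.0% and 30.2, 25.8 and 11.3%. The sums of the 3 were 1067, 787 and 869 and 652, 710.2 and 896, which overlapped.

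**Figure D3:**
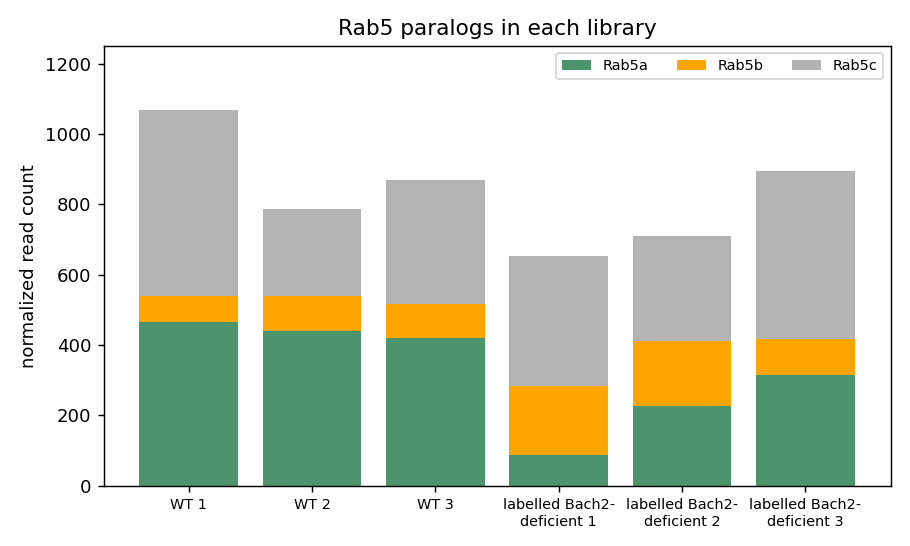
Stacked bars give the normalized read count (vertical) of Rab5a, Rab5b and Rab5c in each of the 6 libraries, starting at 0. The Rab5a segment is largest in the 3 WT libraries, at 420.1 to 466, and smallest in replicate 1 labelled Bach2-deficient, at 87.2.

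The promoter of Rab5a holds a sequence that several members share. RefSeq upstream windows on GRCm38.p6 were available for 89 of the 113 members, as 117 windows of 250 bases before a start site, and were searched on both strands for TGAGTCA (reverse complement TGACTCA), the letters read by AP-1 and found within Bach2 sites, and for TCACGTGA, its own reverse complement, the palindrome that TFEB and its relatives read in promoters of lysosomal genes. Where they meet, the 2 motifs can share 3 letters, TCA or TGA, but no member window held both. TGAGTCA was in 2 member windows, of Rab34 and Vps13d, or 1.71%, against 4.46% of all 32851 windows and 2.89% of the 10446 windows of genes tested. TCACGTGA was in 7 member windows, or 5.98%, against 0.785% and 1.60%. The 6 genes were Rab5a, its relative Rab21, Stx6 of the trans-Golgi network, Vps16 and Vps33a of the HOPS and CORVET tethers, and Vps26a of retromer. These bases are shown for the 3 in which no annotated exon covers the motif, with the motif in capitals, up to 60 bases on each side, 5′ to 3′ on the gene's strand. They lie at chr17:53479078-53479205 on the plus strand for Rab5a, chr10:115315595-115315645 on the minus strand for Rab21 and chr1:155158557-155158684 on the plus strand for Stx6.
Rab5a: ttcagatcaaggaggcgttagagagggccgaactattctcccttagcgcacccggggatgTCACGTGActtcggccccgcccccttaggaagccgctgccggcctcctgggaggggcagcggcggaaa
Rab21: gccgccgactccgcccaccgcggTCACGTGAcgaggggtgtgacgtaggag
Stx6: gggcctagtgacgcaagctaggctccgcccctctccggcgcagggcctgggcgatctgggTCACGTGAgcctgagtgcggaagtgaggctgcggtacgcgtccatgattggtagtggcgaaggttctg
The motif's first base is 96, 31 and 86 bases before the start site. The 6 genes did not share a direction. Log2 fold changes were -1.26 for Rab5a, -0.36 for Vps26a, -0.21 for Stx6, -0.11 for Vps33a, 0.17 for Vps16 and 0.29 for Rab21, and of these Rab5a alone had an unadjusted limma p under 0.05.

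On the recycling route, Rab35, which returns cargo from endosomes to the plasma membrane, was at 143, 136 and 140.4 normalized counts in WT replicates 1, 2 and 3 and at 333, 339 and 222 in replicates 1, 2 and 3 labelled Bach2-deficient. The WT libraries were almost equal and every library labelled Bach2-deficient was higher. Its mean was 139.8 ± 3.83 (SD, n = 3) against 298 ± 65.8 (SD, n = 3), with a log2 fold change of 1.06 ± 0.30 (SE, limma adjusted p = 0.146). The Rab11 paralogs mark recycling endosomes. Rab11b was at 2115, 1676 and 1975 normalized counts in WT replicates 1, 2 and 3 and at 1292, 1075 and 1534 in replicates 1, 2 and 3 labelled Bach2-deficient. Its groups did not overlap and the libraries labelled Bach2-deficient were the lower ones, by -0.57 ± 0.21 (SE, limma adjusted p = 0.181). Rab11a was at 1331, 1283 and 1546 and 1423, 1509.6 and 1221 in the same order, with overlap and a 95% interval of the log2 difference from -0.43 to 0.42. Of the Rab11 effectors, Rab11fip4 was at 106, 113 and 107 normalized counts in WT replicates 1, 2 and 3 and at 294, 213 and 164 in replicates 1, 2 and 3 labelled Bach2-deficient, and Rab11fip2 at 75.7, 125 and 88.4 and 170.0, 166 and 189. Both were higher without overlap, with log2 fold changes of 0.99 ± 0.34 (SE, limma adjusted p = 0.170) and 0.89 ± 0.35 (SE, limma adjusted p = 0.204).

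Toward the late endosome and lysosome, Rab9, which acts in return from late endosomes to the Golgi, was at 579, 573 and 622 normalized counts in WT replicates 1, 2 and 3 and at 263, 318 and 429 in replicates 1, 2 and 3 labelled Bach2-deficient. It was lower without overlap, with a log2 fold change of -0.84 ± 0.25 (SE, limma adjusted p = 0.151). Rab7, the main Rab of late endosomes and lysosomes, was at 1964, 1556 and 1670.0 and 1210.4, 1399.7 and 1626, where replicate 3 labelled Bach2-deficient lay within the WT range, with -0.30 ± 0.20 (SE, limma adjusted p = 0.399). Rab7b, at 0, 11.2 and 1.04 and 28.1, 21.4 and 14.3 in the same order, was higher without overlap. The counts of Rab7b were low and its log2 fold change was 2.88 ± 1.27 (SE, limma adjusted p = 0.236). Vps41, the HOPS subunit that binds the Rab7 machinery on target membranes, was at 763, 679.8 and 690.4 and 588, 489 and 536. Its groups did not overlap and its log2 fold change was -0.40 ± 0.21 (SE, limma adjusted p = 0.288). The other 7 members grouped here with HOPS and CORVET, Vps33b among them, ranged in log2 fold change from -0.11 to 0.94, none at an unadjusted p under 0.05.

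Retromer retrieves receptors from endosomes, and its core subunit Vps35 was at 1743, 1519.9 and 1405 normalized counts in WT replicates 1, 2 and 3 and at 718, 888 and 969 in replicates 1, 2 and 3 labelled Bach2-deficient. Each library labelled Bach2-deficient was below each WT library. The mean was 1556 ± 172 (SD, n = 3) against 858 ± 128 (SD, n = 3) and the log2 fold change -0.86 ± 0.20 (SE, limma adjusted p = 0.141). Vps29, the subunit that binds Vps35, was at 2500.1, 2491 and 3105 normalized counts in WT replicates 1, 2 and 3 and at 1998, 1892 and 2173 in replicates 1, 2 and 3 labelled Bach2-deficient. It was lower without overlap by -0.41 ± 0.19 (SE, limma adjusted p = 0.246). Vps26a and Vps26b, its remaining, alternative subunits, overlapped between groups at log2 fold changes of -0.36 and 0.24. In the ESCRT pathway, which buds vesicles into endosomes, the ATPase Vps4a was at 534, 384 and 446 normalized counts in WT replicates 1, 2 and 3 and at 319, 257 and 271 in replicates 1, 2 and 3 labelled Bach2-deficient. It was lower without overlap, at -0.68 ± 0.25 (SE, limma adjusted p = 0.187), while its paralog Vps4b was at 1344, 1188 and 958 and 1259, 1254 and 1217 with overlap. Vps72 carries a Vps name but is a subunit of nuclear chromatin complexes that deposit a histone variant. It was at 716, 581 and 749 normalized counts in WT replicates 1, 2 and 3 and at 278, 312 and 443 in replicates 1, 2 and 3 labelled Bach2-deficient. The groups did not overlap, with a log2 fold change of -1.0 ± 0.26 (SE, limma adjusted p = 0.141).

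For delivery to the surface, Rab8a was at 2062, 1548 and 1718 normalized counts in WT replicates 1, 2 and 3 and at 906, 1045 and 1373 in replicates 1, 2 and 3 labelled Bach2-deficient. All 3 libraries labelled Bach2-deficient lay below the WT libraries, by -0.69 ± 0.22 (SE, limma adjusted p = 0.158). Its paralog Rab8b was at 1946, 2121 and 2534 and 2502, 2498 and 1747 in the same order, with overlap. The log2 fold change of Rab8b was 0.021 ± 0.21 (SE, limma adjusted p = 0.967). Rab3ip, the exchange factor that activates Rab8, was at 512, 308 and 216 and 234, 179.6 and 115, and overlapped between the groups at -0.94 ± 0.39 (SE, limma adjusted p = 0.219). Rab27a, needed for docking of lytic granules in cytotoxic T cells, was at 281, 277 and 359 normalized counts in WT replicates 1, 2 and 3 and at 808, 541 and 344 in replicates 1, 2 and 3 labelled Bach2-deficient. Replicates 1 and 2 labelled Bach2-deficient were above the WT libraries and replicate 3 was within their range, with a log2 fold change of 0.81 ± 0.32 (SE, limma adjusted p = 0.205). Rab37, a Rab of secretory granules, was at 1045, 1145 and 1084 and 996, 855 and 1496 with overlap and a 95% interval of the log2 difference from -0.53 to 0.52. Rab3gap1, the catalytic subunit of a complex that inactivates Rab3, was higher without overlap at 672, 476 and 549 against 411, 464 and 450.2 in WT, with 0.34 ± 0.23 (SE, limma adjusted p = 0.395). Rab2a, which acts between the ER and the Golgi, was at 2069, 2347 and 2773 and 1846, 2229.9 and 2517, with overlap and a log2 fold change of -0.13 ± 0.20 (SE, limma adjusted p = 0.740).

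Among the SNAREs, Stx4a, a syntaxin of the plasma membrane, was at 293, 219.9 and 249.6 normalized counts in WT replicates 1, 2 and 3 and at 529, 515 and 307 in replicates 1, 2 and 3 labelled Bach2-deficient. Every library labelled Bach2-deficient was higher, replicate 3 by the least, with a log2 fold change of 0.79 ± 0.29 (SE, limma adjusted p = 0.186). Vamp4, a SNARE that cycles between endosomes and the trans-Golgi network, was at 1122, 1088 and 1310.2 normalized counts in WT replicates 1, 2 and 3 and at 665, 947 and 789.6 in replicates 1, 2 and 3 labelled Bach2-deficient. It was lower without overlap, at -0.56 ± 0.21 (SE, limma adjusted p = 0.193). Vamp2, which pairs with plasma membrane syntaxins, was at 215, 316 and 243 and 412, 325 and 326. These did not overlap, although replicates 2 and 3 labelled Bach2-deficient were just above WT replicate 2, and the log2 fold change was 0.47 ± 0.27 (SE, limma adjusted p = 0.341). Stx5a of the Golgi, Stx7 of late endosomes and Vamp3 of recycling endosomes overlapped between groups, with log2 fold changes of -0.52 ± 0.25 (SE, limma adjusted p = 0.266), -0.42 ± 0.25 (SE, limma adjusted p = 0.346) and -0.42 ± 0.28 (SE, limma adjusted p = 0.395). Vamp3 overlapped through WT replicate 1 alone, at 416 against 719 and 811 in WT replicates 2 and 3, and without that library its log2 fold change was -0.71. Stx11, needed for granule release in cytotoxic cells, was at 952, 597 and 715 and 1055, 675 and 895, with overlap, at 0.22 ± 0.25 (SE, limma adjusted p = 0.634). Vamp8, an endosomal and granule SNARE, was at 1399.9, 1805 and 2303 and 1533, 1815 and 2089.6, and the 95% interval of its log2 difference ran from -0.51 to 0.51.

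Levels between genes are compared as mean normalized count per kb of the longest transcript, over 6 libraries. The highest of each family, the Rab-named RNAs aside, were Arf5 at 1936, Rab2a at 1077, Vamp8 at 879, Vps29 at 702, Stx4a at 242 and Rab3gap1 at 119. For Stx and the Rab partners the order depended on the group. In the WT libraries Stx5a, at 234, was above Stx4a, at 174, and Rab3ip, at 128, above Rab3gap1, at 104. Arf1 followed Arf5 over all 6 at 1531. On this scale Arf5 spanned 1397 to 2879.6 over the libraries and Arf1 1125 to 2399, so the order of these 2 levels is within their spread.

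Paralogs were also compared within each library, where the size factor nearly cancels, as the log2 ratio of normalized count + 1 of 2 members with the same name and number. Of 22 such pairs, 4 did not overlap between the groups, each with an exact permutation p of 0.1 (2-sided). A pair with no difference between groups separates so with a probability of 0.1, and no share over pairs of other genes is given here. With 3 libraries against 3 no smaller p is possible, so no pair could pass after adjustment (adjusted p = 0.55 for these 4), and the ratios are descriptions. The Rab5a/Rab5b log2 ratio was 2.69, 2.11 and 2.12 in the WT libraries and -1.16, 0.31 and 1.63 in the libraries labelled Bach2-deficient. The difference was -2.05 (exact permutation p = 0.1, the smallest possible), and -2.74 to -1.34 with 1 library left out. The Vps4a/Vps4b ratio was -1.33, -1.63 and -1.10 and -1.98, -2.28 and -2.16, so Vps4a was the lesser of the pair in every library and more so in those labelled Bach2-deficient. Rab11a/Rab11b was -0.67, -0.38 and -0.35 and 0.14, 0.49 and -0.33, and Rab5a/Rab5c -0.18, 0.83 and 0.25 and -2.06, -0.40 and -0.61. These ratios are not corrected for length. With the correction for length and GC content, added after the values were seen, the group difference was 1.34 for Rab11a/Rab11b, against 0.57 without it. Paralogs are similar in sequence, and a pseudogene, Rab11b-ps2, was counted beside Rab11b, so some reads may be split between copies.

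Some members were near 0 in WT replicate 1. Of the 113, 13 had a value under 5 there while the median of the other 5 libraries was at least 10, or 11.5%, against 9.01% of all genes tested in that library and 0.885% to 3.54% of members in the others. Of the 13, 3 were under 5 in a further library too. They include Arf2, at 1.01, 122 and 118 in WT replicates 1, 2 and 3 and 167, 155 and 97.2 in the others, Rab4a, at 0, 61.7 and 153 and 35.5, 46.9 and 65.5, and Stx3, at 0, 40.4 and 41.6 and 57.6, 61.6 and 35.8. These 3, named here because of their values, show how a single library carries the large log2 fold changes of 2.15 for Arf2 and 2.09 for Stx3. Neither passed the test, at limma adjusted p of 0.359 and 0.368.

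Longer transcripts tended to have higher log2 fold changes. Over 11263 genes, Spearman's rho of log2 fold change with longest transcript length was 0.320, and 0.221 across the 113 members, as descriptions over genes that are not independent. After correction of each library for length and GC content, the log2 fold change was -0.47 for Arf4, -0.33 for Rab9, -0.61 for Vps72, 0.55 for Arf3, 0.38 for Rab11fip4 and -0.27 for Vamp4, each smaller by more than 1.5 times. The same held for Vps29 (-0.19), Vps41 (-0.21) and Stx7 (-0.24), and for Rab7 (-0.0071) and Vamp3 (-0.014), which were then near 0. Vps35 (-0.86), Rab35 (0.98), Arf6 (0.72) and Rab5a (-1.11) kept values near those given above, and Rab11b was larger in size, at -0.88. Rab11a, near 0 before, was then at 0.45 (unadjusted p = 0.0454), outside its interval given above.

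**Figure D4:**
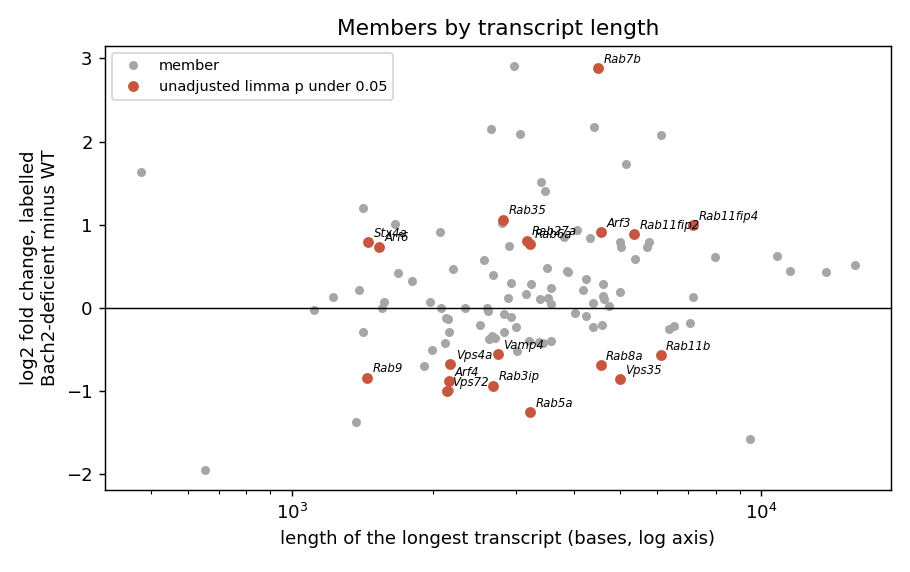
Each point is 1 of the 113 members, placed by the length of its longest transcript in bases (horizontal, log axis) and its log2 fold change in libraries labelled Bach2-deficient minus WT (vertical), with members at an unadjusted limma p under 0.05 in red and named. Arf4, Rab9 and Vps72, which are lower, are among the shorter transcripts and Rab11fip4, which is higher, among the longer ones, while Vps35 and Rab11b are long and lower.

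The proteins that control or assist the members were taken as 8 lists of 321 genes, of which 287 were tested. None was called by limma. At an unadjusted p under 0.05, 32 were higher and 35 lower, 11.1% and 12.2%, beside the 10.1% and 10.2% of all genes, against which the counts of single lists below are also to be read. After correction for length and GC content they were 20 and 26, or 6.97% and 9.06%. Of 27 Rab effectors 8 were higher and 0 lower, but after correction for length and GC content 2 and 1 (7.41% and 3.70%, against 8.59% and 8.12% of all genes in that fit). Among the 8 was Ehbp1l1, an adaptor of Rab8, at 97.9, 145 and 98.8 normalized counts in WT replicates 1, 2 and 3 and at 331, 261 and 190.2 in replicates 1, 2 and 3 labelled Bach2-deficient, without overlap and with a log2 fold change of 1.18 ± 0.35 (SE, limma adjusted p = 0.149). Gcc1, a golgin of the trans-Golgi network, was at 47.4, 88.6 and 75.9 and 157, 186 and 127, higher without overlap, at 1.16 ± 0.40 (SE, limma adjusted p = 0.172). Of 75 Rab regulators 10 were higher and 3 lower, but 4 and 3 after that correction. Dennd4b, an exchange factor for Rab10, was higher at 650.3, 474 and 345 against 178, 224 and 263 in WT, by 1.11 ± 0.30 (SE, limma adjusted p = 0.144). Gdi2, the chaperone that keeps GDP-bound Rabs in the cytosol, was at 6086, 5336 and 5994 normalized counts in WT replicates 1, 2 and 3 and at 3687, 3442 and 4022 in replicates 1, 2 and 3 labelled Bach2-deficient. It was lower without overlap, by -0.64 ± 0.18 (SE, limma adjusted p = 0.144). Of 47 Arf regulators and Arf-like GTPases 6 were higher and 3 lower, led by Arl4c, an Arf-like GTPase, at 1.79 ± 0.49 (SE, limma adjusted p = 0.144), and the Arf GAP Arap1 at 1.33 ± 0.39 (SE, limma adjusted p = 0.147), both higher without overlap. The counts of this list were 5 and 1 after that correction.

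Of 43 coats and adaptors 3 were higher and 12 lower (27.9%), and 4 and 9 after correction for length and GC content. By groups without overlap the list was nearly even, with 7 above and 8 below (16.3% and 18.6%, against 14.6% and 12.2% of all genes) and a median log2 fold change of -0.073. Ap1s2, the small subunit of the AP-1 clathrin adaptor that Arf1 recruits, was at 888, 946 and 1059 normalized counts in WT replicates 1, 2 and 3 and at 568, 417 and 423 in replicates 1, 2 and 3 labelled Bach2-deficient. All libraries labelled Bach2-deficient were well below WT, replicate 1 the highest of them, with a log2 fold change of -1.05 ± 0.22 (SE, limma adjusted p = 0.141). Ap3m1, the medium subunit of AP-3, was at 508, 726 and 657 and 269, 312 and 338, lower without overlap, by -1.03 ± 0.24 (SE, limma adjusted p = 0.141). In the list of 29 other SNAREs and SNARE regulators, which also holds the phospholipase Napepld, 0 were higher and 5 lower (17.2%), led by Napa, the adaptor through which NSF takes SNARE complexes apart, at 2185, 1489.6 and 1515 and 644, 783 and 1183. Napa had a log2 fold change of -1.01 ± 0.27 (SE, limma adjusted p = 0.141), and Snap23, the partner of Stx4 at the plasma membrane, -0.91 ± 0.24 (SE, limma adjusted p = 0.141). Of 26 sorting nexin and WASH genes 1 was higher and 5 lower (3.85% and 19.2%), with -0.69 ± 0.19 (SE, limma adjusted p = 0.146) for Snx6, a partner of retromer, and -2.54 ± 0.72 (SE, limma adjusted p = 0.146) for Snx11, an endosomal sorting nexin that was at 343 in WT replicate 1 and at 71.8 and 74.9 in the other WT libraries. The counts of this list were 1 and 2 after correction for length and GC content. Of 19 further ESCRT genes 2 were higher and 3 lower (10.5% and 15.8%), and 2 and 1 after that correction. Chmp4b, the filament subunit of ESCRT-III, was at 331, 316 and 329.6 normalized counts in WT replicates 1, 2 and 3 and at 773, 523 and 689 in replicates 1, 2 and 3 labelled Bach2-deficient. It was higher without overlap, by 1.0 ± 0.24 (SE, limma adjusted p = 0.141), while Vta1, the cofactor of Vps4, was lower by -0.82 ± 0.22 (SE, limma adjusted p = 0.142). Of 23 tethers and class III PI3K subunits 2 were higher and 4 lower (8.70% and 17.4%), among them Cog7 of the Golgi COG complex at 1.45 ± 0.46 (SE, limma adjusted p = 0.157) and Exoc6 of the exocyst at -0.90 ± 0.27 (SE, limma adjusted p = 0.151). With the correction, the last list had 1 and 5, and the SNARE list 1 and 4. The log2 fold change was then smaller by more than 1.5 times for 7 of the 16 genes named from these lists, at 0.51 for Ehbp1l1, 0.42 for Dennd4b, 0.69 for Arap1, -0.70 for Ap1s2, -0.53 for Snap23, -0.23 for Snx6 and -0.39 for Vta1.

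**Figure D5:**
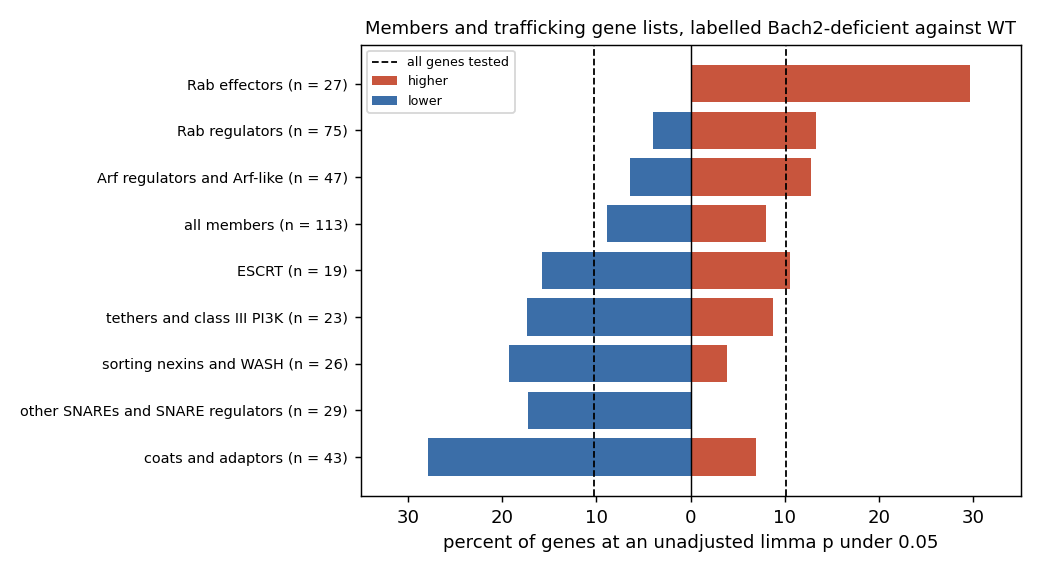
Horizontal bars give the percent of the 113 members and of each of 8 trafficking gene lists at an unadjusted limma p under 0.05, higher (right, red) or lower (left, blue) in libraries labelled Bach2-deficient, with dashed lines at 10.1% and 10.2% for all genes tested. Rab effectors (29.6% higher, 0% lower) and coats and adaptors (6.98% higher, 27.9% lower) lie at the ends, and no gene of any list passed the adjusted threshold.

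Several named genes share positions with other genes, and whether reads were counted by strand is not given in the sources used here. Reads of Arf4 and Arf4os, Arf5 and Gcc1, Rab11fip4 and its antisense RNAs, Rab37 and Cd300lf, and Rab5a and Pp2d1 can therefore not be told apart where they overlap.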

How the data were processed

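The authors deposited a signal per gene, read counts divided by a size factor, for 14744 symbols in 6 libraries of amplified cDNA (SMARTer Ultra Low kit). The study's methods name Tophat2, HTSeq and DESeq2. The submitters' processing notes name STAR 2.5.2b, DESeq, DESeq2 1.20.0, R 3.5.1 and GRCm38/mm10, and which of these made the table is not given. No annotation is given in the sources used here.

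All values in a library are whole multiples of 1 step (100% within 0.001), which gives 6585742 and 7823717 reads in WT replicates 2 and 3, and 5045131, 10987752 and 7197242 in replicates 1, 2 and 3 labelled Bach2-deficient. WT replicate 1 (step 1.01) has 7737531 steps in all. Steps close to a power of 10 are not accepted as recovered reads by the rule used, so this library entered no count test, although its values are whole multiples too. At this depth counting error is small for most named genes and large for values near 10.

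Log2(value + 1) was tested with limma 3.58.1 (R 4.3.3, trended variance) over 11296 genes, with Benjamini-Hochberg adjustment. The added 1 draws the fold change of low genes toward 0, but a value near 0 in 1 library can also enlarge or reverse it. Arf2 had a log2 fold change of 2.15 with group means of 80.3 in WT and 140 in the others. Rab4a had 1.20 although its WT mean of 71.5 was above the other mean of 49.3. Alternatives were edgeR 4.0.16 and DESeq2 1.42.0 on 5 libraries, other pseudocounts, filters, scalings, variance models and thresholds, library weights, a trend in length and GC content, the replicate number as a block, and fits without 1 library. Paralog ratios had exact permutation tests. Lengths and GC content are of the longest transcript in GENCODE M21 on GRCm38, where 14329 genes matched by symbol and 363 by an older one. Each fitting procedure was tested on simulated data, but the outcome is not given here.

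Named genes were, in each family except the Rab-named RNAs, those of the smallest unadjusted p (up to 6 Rab GTPases, 5 Vps and 3 of each other family), any called by a count test, the one of the highest level per kb, and a fixed set (Rab27a, Rab7, Rab5a, Rab11a, Rab8a, Rab37, Arf1, Arf6, Stx11, Stx7, Vamp2, Vamp7, Vamp8, Vps35, Vps4a, of which Vamp7 was not among the members). In each pathway list they were the 2 of the smallest unadjusted p. The members, lists, rules and alternative fits were chosen with earlier results of these data known. Rab6a, Rab7b, Rab8b, Rab13, Rab21, Rab38, Rab5b, Rab5c, Stx3, Stx6, Arf2, Rab4a, Rab34, Vps4b, Vps13d, Vps16, Vps26a, Vps26b, Vps33a, Jchain and Lyz2 were singled out after their values were seen. So were the Tfh markers Cd4, Bcl6, Tox2, Cd3e and Icos.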

Additional observations from a re-analysis of the deposited data

How the results depend on the processing

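Of the 32 named members, 27 kept their direction in each of 18 other fits. The 5 that did not were near 0. For Arf5 the log2 fold change was 0.15 with DESeq2, 0.17 with edgeR, 0.040 without the length and GC trend and 0.12 after quantile normalization, and leaving out 1 library gave -0.34 to 0.18. Without the length and GC trend it was 0.45 for Rab11a, 0.28 for Rab2a, 0.023 for Rab37 and 0.18 for Vamp8. After quantile normalization the same 4 were at 0.12, 0.035, 0.10 and 0.13, and Rab11a was at 0.023 with library weights. Leaving out 1 library gave -0.068 to 0.085 for Rab11a, -0.24 to 0.16 for Rab37 and -0.18 to 0.18 for Vamp8. Of those that kept their direction, some moved by more than 1.5 times when 1 library was left out, with -0.71 to -0.28 for Arf1, 0.51 to 1.12 for Rab27a, -1.23 to -0.61 for Rab3ip, 0.21 to 0.46 for Rab3gap1, -1.64 to -0.72 for Rab5a, -0.40 to -0.19 for Rab7, 0.061 to 0.40 for Stx11 and -0.71 to -0.23 for Vamp3. With library weights the log2 fold change was -0.043 for Stx7, 0.068 for Stx11, 0.15 for Rab3gap1, -0.47 for Rab3ip and -0.67 for Vamp3. The cause of these reversals and moves was not tested.

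The count of members called was 0 in each direction in every fit except that with library weights, which called 3 higher and 3 lower, and had 22 higher and 21 lower at an unadjusted p under 0.05 (19.5% and 18.6%, against 24.3% and 22.8% of all genes). Those called were Arf4 (-1.02), Rab35 (1.24), Rab5a (-1.04), Rab6a (1.02), Stx4a (1.04) and Vps72 (-1.14), and Vps35 was not called, at a fold under 2. Without replicate 3 labelled Bach2-deficient, limma's adjusted p was under 0.05 for 5 members, Arf3, Arf4, Rab9, Vps35 and Vps72, from 0.0386 to 0.0482, or 4.42%, against 4.49% of all genes in that fit, and none passed 0.01. Leaving out 1 library gave 2 to 13 members higher and 7 to 15 lower at an unadjusted p under 0.05 (1.77 to 11.5% and 6.19 to 13.3%), against 4.14 to 13.1% and 5.36 to 14.0% of all genes. Replicate numbers were not taken as pairs, since the deviations of same-numbered libraries from their group means were hardly correlated (r of -0.069, 0.12 and -0.039). With the number as a block, 7 members were higher and 10 lower at an unadjusted p under 0.05, against 1017 and 1034 of all 11296 genes, and none was called.

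Family medians moved by more than the spread between libraries as follows. With DESeq2 and edgeR they were 0.17 and 0.19 for Arf, -0.027 and -0.0052 for the Rab GTPases, 0.30 and 0.33 for the Rab partners and -0.15 and -0.13 for Stx. Without the length and GC trend they were 0.27 for the Rab GTPases, 0.25 for the partners, 0.16 for Stx and -0.013 for Vps. The Stx median was -0.11 with library weights, -0.16 over genes with a mean of at least 50 and -0.13 after quantile normalization. Median rescaling moves the log2 fold change of every gene by -0.085, which by construction puts the Stx median at -0.030, and it gave 8 members higher and 15 lower at an unadjusted p under 0.05, against 904 and 1435 of all 11296 genes. Leaving out 1 library gave 0.14 to 0.45 for Arf, -0.019 to 0.22 for the Rab GTPases, 0.33 to 0.82 for the partners, -0.13 to 0.13 for Stx and -0.11 to 0.14 for Vps. No paralog ratio moved by more than the spread between libraries with another pseudocount or 1 library left out. Leaving out 1 library still gave group differences of -2.74 to -1.34 for Rab5a/Rab5b and -1.63 to -0.80 for Rab5a/Rab5c. For Rab11a/Rab11b they were 0.37 to 0.78, and for Vps4a/Vps4b -0.92 to -0.66. The length and GC correction, added for ratios after the values were seen, moved 2 of 22, Rab11a/Rab11b to 1.34 and Rab6a/Rab6b from -0.024 to 0.52. Without WT replicate 1 the pathway lists had 31 genes higher and 31 lower at an unadjusted p under 0.05, against 9.79% and 9.43% of all genes. The cause of the other shifts was not tested. The count tests also lacked WT replicate 1, and limma without that library gave 0.14 for Arf, -0.019 for the Rab GTPases and -0.13 for Stx.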

Other observations

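The sums of the other marker lists varied by library more than by label. At an unadjusted p under 0.05, 0 tested genes of these and the B cell list were higher in the libraries labelled Bach2-deficient. Of 11 myeloid and dendritic genes 2 were lower (18.2%, against 10.2% of all genes), with a median log2 fold change of -0.79. In the B cell, plasma cell and CD8 and NK lists 1 gene each was lower, of 7, 4 and 7. The 6 plasma cell genes summed to 2097, 30428 and 8547 normalized counts in WT replicates 1, 2 and 3 and to 3498, 1729 and 1743 in replicates 1, 2 and 3 labelled Bach2-deficient. The 12 myeloid and dendritic genes summed to 2604, 8496 and 4274 and 2272, 5849 and 1951, and the 7 CD8 and NK genes, with Gzma the most abundant, to 904, 2046 and 1138 and 695, 2590.4 and 1025. Of the stroma and erythroid list 6 of 7 genes were in the table, with Pecam1 the most abundant, and summed to 463, 1076 and 548 and 600.0, 525 and 2731. In that list Hba-a1 was at 2.02, 238 and 0 and 8.87, 18.1 and 1116, so WT replicate 2 and replicate 3 labelled Bach2-deficient held globin RNA that the other 4 libraries had at 18.1 or less. Irf4 and Xbp1 of the plasma cell list are also expressed in Tfh cells.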
